A study of Mus musculus with 6 samples.

Results

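Cholesterol export and the lipid-sensing nuclear receptors that control it were examined through 10 genes, all of them listed among the 24786 gene symbols of the expression table. They were chosen by name and comprise the liver X receptor (LXR) genes *Nr1h2* and *Nr1h3*, the retinoid X receptor gene *Rxra*, the peroxisome proliferator-activated receptor (PPAR) genes *Ppard* and *Pparg*, the sterol exporter genes *Abca1* and *Abcg1*, the lipoprotein genes *Apoe* and *Lpl*, and *Mylip*, whose product targets lipoprotein receptors for degradation. Messenger RNA of the mouse macrophage line Raw264.7, a line from a virus-induced tumor, was sequenced in 3 libraries with a control shRNA (sh-NC) and in 3 libraries with an shRNA against *Etv5* (sh-*Etv5*). Both groups were infected with lentivirus. The labels name 24 or 48 h after infection and Lipofectamine for both groups. The methods describe puromycin selection of infected cells, and the study calls the sequenced cells stably transfected. The times in the labels do not settle whether the sequenced cells had been selected. Control and knockdown cells are described alike in this respect. The sources used here do not say which of the *Etv5* shRNAs was sequenced or whether each library stands for its own infection, so p-values measure the spread between these libraries, which may be technical. The labels give the strain as C57BL/6, although Raw264.7 is generally described as a BALB/c line.

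LXRs are activated by oxidized cholesterol and bind DNA together with an RXR. In macrophages loaded with cholesterol they switch on *Abca1* and *Abcg1*, whose products move cholesterol to lipoprotein particles outside the cell, as well as *Apoe*, which supplies an acceptor, and *Mylip* (also called *Idol*), which lowers lipoprotein uptake. PPARs respond to fatty acids, also pair with RXR, and act on genes of lipid uptake, storage and oxidation. *Lpl* encodes lipoprotein lipase, a secreted enzyme that releases fatty acids from triglyceride-rich particles and is known as a target of both receptor families.

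Upon knockdown of *Etv5*, the genes moved in different directions. *Lpl*, *Abcg1*, *Apoe* and *Mylip* fell, *Ppard* and *Nr1h2* rose, and *Nr1h3* did not pass the test. *Rxra*, *Abca1* and *Pparg* were too low for the main comparison, for which a gene needed at least 1 RPKM (reads per kilobase of gene scaled to mapped reads, the deposited unit) in at least 3 libraries. Of the 10 genes 7 met this filter, and 6 of these were called by limma on log2(RPKM + 1) at a Benjamini-Hochberg adjusted p-value under 0.05, 2 higher and 4 lower. The background was high, since 74.3% of the 10738 genes tested were called (33.3% of the tested genes higher and 41.0% lower), so a share of 6 in 7 is near what any genes would give and is not a result about these genes. The median log2 fold change was -0.49 over the 7 genes and -0.05 over all genes tested. For 8 of the 10 genes every library of a group lay above every library of the other, 4 higher and 4 lower in sh-*Etv5* cells, against 76.4% of the genes tested and 55.3% of the 17831 symbols above 0 in any library. In these bulk samples, fewer cells that express a gene and less of its RNA per cell cannot be told apart.

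**Figure D1:**
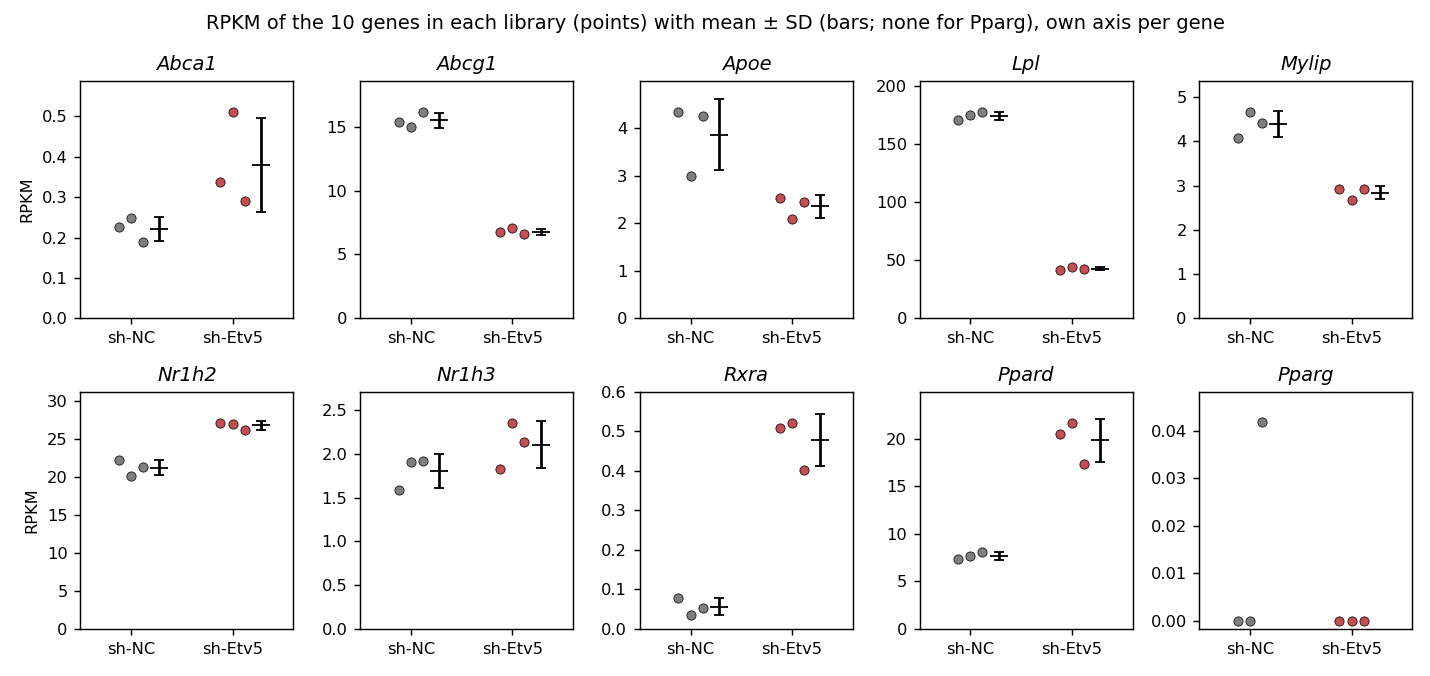
RPKM (vertical axes, 1 scale per gene) of the 10 genes in the 3 sh-NC (gray) and 3 sh-*Etv5* (red) libraries, with the mean and SD as bars except for *Pparg*, which is listed at 0 in 5 libraries. *Lpl* lies between 171 and 178 RPKM in sh-NC cells and between 41.5 and 44.2 RPKM in sh-*Etv5* cells, and the groups overlap for *Nr1h3* and *Pparg*.

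The libraries were alike within groups. The Pearson correlation of log2(RPKM + 1) across genes was between 0.9982 and 0.9988 within groups and between 0.9745 and 0.975 between them, and genes are not independent replicates. *Etv5* measured 9.18, 9.89 and 9.39 RPKM in control (sh-NC) and 5.19, 4.91 and 5.28 RPKM in knockdown (sh-*Etv5*) libraries, lower in each, with a mean 0.540 times that of the control. Of 10 macrophage markers, 8 were at 1 RPKM or more in every library, while *Mrc1* and *Mertk* stayed below. The summed level of the 10 markers was 3872 to 3977 RPKM in sh-NC cells and 2867 to 2943 RPKM in sh-*Etv5* cells. The highest single value among them was 2881 RPKM, of *Lyz2*. The sum therefore follows mainly this gene and does not give the direction of the other markers. Markers of adipocytes, hepatocytes, T cells, B cells and fibroblasts, 5 of each, were near 0, with a highest value of 0.367 RPKM for *Cd79b*. *Lep*, *Apoa1*, *Serpina1a*, *Pax5* and *Col1a2* were listed at 0 in every library. The summed B cell markers were 0.0367 to 0.199 RPKM in sh-NC and 0.256 to 0.733 RPKM in sh-*Etv5* libraries, the summed T cell markers at most 0.111 and 0.181 RPKM, the fibroblast markers at most 0.0238 and 0.164 RPKM, the adipocyte markers at most 0.0626 and 0.197 RPKM, and the hepatocyte markers at most 0.000151 and 0.0446 RPKM. None of these markers reached 1 RPKM, although several of the sums were higher in sh-*Etv5* libraries, and their part in the results was not tested.

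Of the LXR genes, *Nr1h2* carried most of the RNA. *Nr1h2* (LXRβ, GRCm38 chromosome 7, 44549616 to 44553951, minus strand) measured 22.2, 20.1 and 21.3 RPKM in control and 27.1, 27.0 and 26.1 RPKM in knockdown libraries. Each sh-*Etv5* library was above each sh-NC library, and the mean rose by 26.1%, from 21.2 ± 1.02 to 26.7 ± 0.550 RPKM (SD, n = 3). By limma the change was, on the log2 scale, 0.32 with an adjusted p of 6.28e-05 (standard error 0.0452), a modest change that 2440 of the tested genes exceeded upward. *Nr1h3* (LXRα, chromosome 2, 91184061 to 91202834, minus strand), the LXR that is typical of macrophages and liver, measured 1.59, 1.91 and 1.92 RPKM in control and 1.83, 2.36 and 2.13 RPKM in knockdown libraries. Here the groups overlapped, and a log2 fold change of 0.15 did not pass the test (95% confidence interval -0.05 to 0.34, limma adjusted p = 0.156). The interval includes the change seen for *Nr1h2*, and the log2 ratio of *Nr1h3* to *Nr1h2* differed by -0.18 between the groups (exact permutation test, two-sided, p = 0.3), so the LXR genes were not shown to respond differently.

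ETV5 belongs to the ETS family, whose members recognize a GGAA core. The element CCGGAAG, which holds this core, was searched on both strands of RefSeq promoter windows on GRCm38.p6, each reaching from 250 bases before to 50 bases after an annotated start. Of 32851 windows, 2910 (8.86%) held at least 1 match. The window of *Nr1h2* held 6 matches, and only 3 of all windows (0.00913%) held at least as many. Counted from the start, they begin at -83, -69, -29, 4, 7 and 32, and those at 4 and 7 share bases. The 13 other windows found for the genes described here held no match, and no window was found for *Abcg1* and *Lpl*. The stretches before the start are shown for *Nr1h2* (chr7:44553966-44554215, minus strand) and, for comparison, for *Nr1h3* (1 of its 2 windows, chr2:91195152-91195366, minus strand, ending 36 bases before the start, where annotated exon sequence begins), with matches in capitals, CTTCCGG being the element read on the opposite strand. The GGAA core by itself occurs in both stretches. A match is a description, binding was not measured here, and no relation to the change of either gene was tested.
Nr1h2: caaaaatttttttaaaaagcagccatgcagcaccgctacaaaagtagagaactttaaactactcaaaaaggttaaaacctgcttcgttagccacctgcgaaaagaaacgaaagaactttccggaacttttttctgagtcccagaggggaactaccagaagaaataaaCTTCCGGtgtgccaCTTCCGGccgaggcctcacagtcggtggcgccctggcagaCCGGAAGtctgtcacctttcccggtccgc
Nr1h3: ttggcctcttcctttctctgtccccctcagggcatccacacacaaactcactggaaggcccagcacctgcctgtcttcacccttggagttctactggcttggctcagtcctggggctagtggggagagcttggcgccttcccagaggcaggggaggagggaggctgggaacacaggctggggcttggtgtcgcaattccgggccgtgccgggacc

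*Rxra* encodes RXRα, 1 of the RXRs with which LXRs and PPARs pair, and was nearly silent in control cells. *Rxra* (chromosome 2, 27676440 to 27762957, plus strand) measured 0.0795, 0.0361 and 0.0533 RPKM in control and 0.509, 0.522 and 0.403 RPKM in knockdown libraries. The groups lay far apart, with means of 0.0563 ± 0.0219 and 0.478 ± 0.0653 RPKM (SD, n = 3), an 8.49-fold ratio of means at levels below the filter. In a limma fit without the filter, in which 47.8% of the symbols were called, *Rxra* rose by 0.48 on the log2(RPKM + 1) scale (standard error 0.0370, limma adjusted p = 2.00e-04). This scale hides much of the change of low genes, and with a pseudocount of 0.01 the log2 fold change was 2.92 (limma adjusted p = 7.49e-04). Most RXR messenger RNA came from *Rxrb*, which fell from 23.0 ± 0.628 to 17.1 ± 0.309 RPKM (SD, n = 3, log2 fold change -0.41, limma adjusted p = 4.45e-06), while *Rxrg* was listed at 0 throughout. *Rxra* therefore made up 0.336%, 0.161% and 0.230% of the *Rxra* and *Rxrb* RPKM in sh-NC and 2.94%, 2.91% and 2.31% in sh-*Etv5* libraries (exact permutation test, two-sided, p = 0.1, the smallest that 3 against 3 libraries can give; 0.2 adjusted over 4 pairs). Summed over the RXR genes, the level went from 23.1 ± 0.649 to 17.5 ± 0.331 RPKM (SD, n = 3), so the rise of *Rxra* did not make up for the fall of *Rxrb*.

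*Rxra* has 2 RefSeq promoter windows, and they differ in the hexamer AGGTCA, the element to which LXR, PPAR and RXR bind as dimers. Of all windows, 16.3% held AGGTCA on either strand. The upstream window of *Rxra* held none and the downstream window (chr2:27709042-27709291 before its start, plus strand) held 2, on opposite strands, in capitals (TGACCT is the reverse). At least 2 were in 1.81% of all windows. The deposited values are per gene and do not tell which start was used. *Pparg* held 1 such element in 2 of its 3 windows, and the windows of *Abca1*, *Apoe*, *Mylip*, *Nr1h2*, *Nr1h3* and *Ppard* held none. The direct repeats of AGGTCA with 4 bases between (DR4, the LXR type) or 1 base between (DR1, the PPAR type) were in 5 and 13 of all windows and in none of the windows described here, which says only that these exact letters are not in these 300 bases.
Rxra: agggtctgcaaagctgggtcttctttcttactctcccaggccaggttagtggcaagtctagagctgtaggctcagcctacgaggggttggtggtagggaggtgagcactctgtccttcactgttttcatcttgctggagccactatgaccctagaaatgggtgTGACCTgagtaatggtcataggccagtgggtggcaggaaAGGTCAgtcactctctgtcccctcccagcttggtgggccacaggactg

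Of the PPAR genes, *Ppard* had the largest rise among the 7 genes tested. *Ppard* (PPARδ, chromosome 17, 28232700 to 28301474, plus strand), which drives fatty acid oxidation genes in many tissues, measured 7.31, 7.64 and 8.10 RPKM in control and 20.5, 21.7 and 17.4 RPKM in knockdown libraries. The lowest sh-*Etv5* library was more than 2 times the highest sh-NC library, and the means were 7.68 ± 0.401 and 19.8 ± 2.24 RPKM (SD, n = 3), a 2.58-fold rise. By limma the change was, on the log2 scale, 1.26 with an adjusted p of 5.16e-08 (standard error 0.0750), which 433 of the tested genes exceeded upward. *Pparg* (PPARγ, chromosome 6, 115360951 to 115490399, plus strand), the receptor of alternative macrophage activation and of adipocytes, was listed at 0 RPKM in all libraries but sh-NC replicate 3, where it was at 0.0419 RPKM. No difference in *Pparg* was detectable at these values (log2 fold change -0.02, 95% confidence interval -0.06 to 0.03, limma without the filter, adjusted p = 0.431). *Ppara*, the receptor typical of liver, did not exceed 0.00710 RPKM. Practically all PPAR messenger RNA was thus from *Ppard* in both groups, and the summed level of the PPAR genes went from 7.70 ± 0.422 to 19.9 ± 2.23 RPKM (SD, n = 3).

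**Figure D2:**
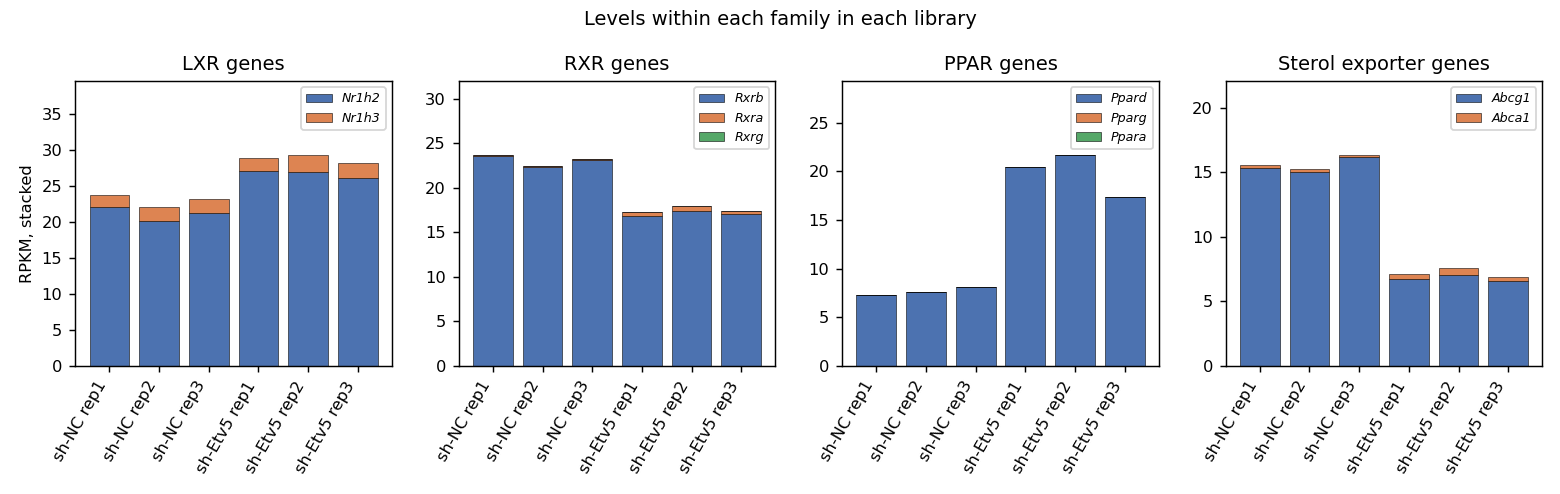
Stacked RPKM of the LXR, RXR, PPAR and sterol exporter genes (4 panels, vertical axes from 0) in each of the 6 libraries. *Nr1h2*, *Rxrb*, *Ppard* and *Abcg1* make up most of each bar in their panels, and the sh-*Etv5* bars are taller for the LXR and PPAR genes and shorter for the RXR and exporter genes.

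The sterol exporter genes were unequal in level, and only *Abcg1* passed the test. *Abcg1* (chromosome 17, 31057675 to 31117988, plus strand), whose product passes cholesterol to mature HDL, measured 15.4, 15.002 and 16.2 RPKM in control and 6.76, 7.05 and 6.58 RPKM in knockdown libraries. Every sh-*Etv5* library was below every sh-NC library, and the level fell by 56.2% on average, from 15.5 ± 0.601 to 6.80 ± 0.237 RPKM (SD, n = 3). By limma the change was, on the log2 scale, -1.08 with an adjusted p of 8.81e-09 (standard error 0.0519), and 239 of the tested genes fell further. *Abca1* (chromosome 4, 53030787 to 53159895, minus strand), whose product loads cholesterol onto lipid-poor apolipoproteins, serves in the study as a marker of metabolic activation beside *Il6*, *Cd36* and *Plin2*. *Abca1* measured 0.226, 0.248 and 0.188 RPKM in control and 0.337, 0.511 and 0.292 RPKM in knockdown libraries. The groups did not overlap, but the levels were below the filter and the log2 fold change of 0.17 did not pass without it (95% confidence interval 0.02 to 0.33, limma adjusted p = 0.0719). That outcome rested on single libraries, since the limma adjusted p was 0.0489 without sh-*Etv5* replicate 2, where *Abca1* was highest, and 0.0486 without sh-*Etv5* replicate 3, and over all its alternatives it ran from 0.0457 to 0.364. With a pseudocount of 0.01 the log2 fold change of *Abca1* was 0.73 (limma adjusted p = 0.118).

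Set against each other, *Abcg1* made up 98.5%, 98.4% and 98.8% of the exporter RPKM in sh-NC and 95.2%, 93.2% and 95.8% in sh-*Etv5* libraries. The shares did not overlap (exact permutation test, two-sided, p = 0.1, the smallest possible; 0.2 adjusted over 4 pairs). The summed level of the exporter genes went from 15.7 ± 0.571 to 7.18 ± 0.351 RPKM (SD, n = 3). In contrast, the share of *Nr1h3* in the LXR pair was 7.87 ± 1.05% and 7.30 ± 0.877% (SD, n = 3) and overlapped between the groups (exact permutation test, two-sided, p = 0.5). The share of *Ppard* in *Ppard* and *Pparg* was 100% in all libraries but sh-NC replicate 3, where it was 99.5% (exact permutation test, two-sided, p = 1.0).

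*Lpl* was by far the most abundant of the 10 genes and had the largest change of the 7 tested. *Lpl* (chromosome 8, 68880491 to 68907448, plus strand) measured 171, 175 and 178 RPKM in control libraries, a level that 255 of the tested genes exceeded. Knockdown libraries held 41.5, 44.2 and 42.6 RPKM, and 1442 genes were above it. On average *Lpl* fell by 75.5%, from 174.7 ± 3.38 to 42.8 ± 1.34 RPKM (SD, n = 3), so that control cells held 4.09 times the level of knockdown cells. By limma the change was, on the log2 scale, -2.01 with an adjusted p of 3.12e-12 (standard error 0.0355), and 31 of the tested genes fell further. Of the 50-base sequences in *Lpl* transcripts, 1.40% also occur in other genes, the highest share of the 10 genes.

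*Apoe* and *Mylip* were low and fell less. *Apoe* (chromosome 7, 19696109 to 19699188, minus strand), a major secretory product of many tissue macrophages, measured 4.34, 2.99 and 4.25 RPKM in control and 2.54, 2.08 and 2.44 RPKM in knockdown libraries. The second sh-NC library lay closer to the sh-*Etv5* libraries than to the other sh-NC libraries, without overlap. The mean of *Apoe* went from 3.86 ± 0.753 to 2.35 ± 0.240 RPKM (SD, n = 3), which is -0.53 on the log2 scale (standard error 0.111, adjusted p = 0.00126 by limma). *Mylip* (chromosome 13, 45389742 to 45412022, plus strand) measured 4.08, 4.67 and 4.42 RPKM in control and 2.92, 2.66 and 2.93 RPKM in knockdown libraries. Its groups were well apart, and the mean fell by 35.4%, a change of -0.49 on the log2 scale (standard error 0.0699, adjusted p = 7.09e-05 by limma). *Nr1h3* shares 34 exonic bases with exons of the noncoding gene *Gm13783*, and exons of the other 9 genes overlap no annotated exon of another gene.

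**Figure D3:**
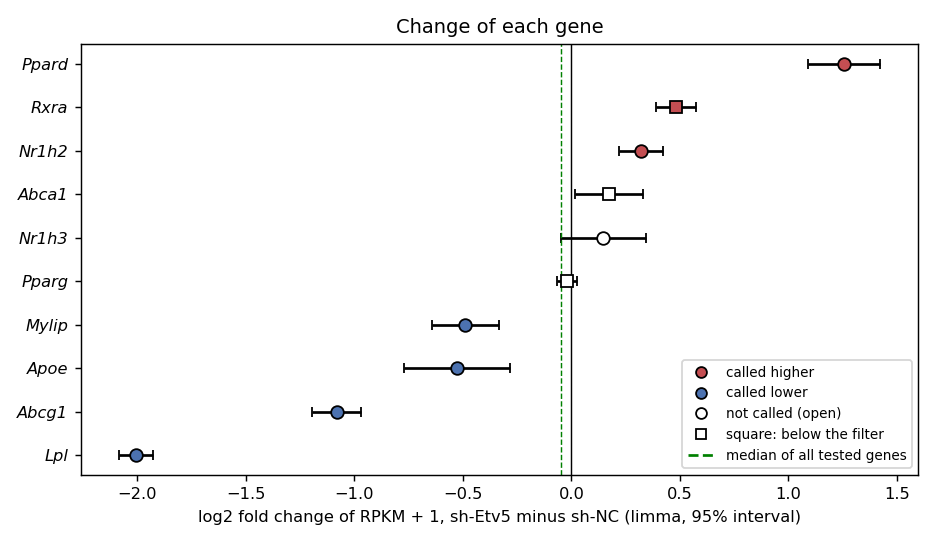
Log2 fold change of RPKM + 1 (horizontal axis, sh-*Etv5* minus sh-NC) of the 10 genes with its 95% confidence interval from limma, red for higher, blue for lower, open for not called, and squares for genes below the filter, taken from the fit without it. The values run from -2.01 for *Lpl* to 1.26 for *Ppard*, and the dashed line marks the median of all tested genes at -0.05.

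The order of the levels changed with the knockdown. In sh-NC cells it ran from *Lpl* over *Nr1h2*, *Abcg1*, *Ppard*, *Mylip*, *Apoe*, *Nr1h3*, *Abca1* and *Rxra* to *Pparg*, per length of gene. Neighbours overlapped only for *Mylip* with *Apoe* and for *Rxra* with *Pparg*. In sh-*Etv5* cells *Ppard* stood above *Abcg1*, and *Rxra* and *Abca1* could not be ordered, nor could *Apoe* and *Nr1h3*. The lead of *Lpl* over *Nr1h2* narrowed from 175 against 21.2 RPKM to 42.8 against 26.7 RPKM.

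Other genes listed as targets of LXR gave no common direction. Of 15 such genes 8 were tested, and 2 were higher, 4 lower and 2 not called, so that 75% were called against 74.3% of all genes tested, with a median log2 fold change of -0.24 against -0.05 for all genes tested. *Smpdl3a*, which encodes a secreted phosphodiesterase, rose from 1.19 ± 0.111 to 9.02 ± 0.484 RPKM (SD, n = 3, log2 fold change 2.20, limma adjusted p = 3.58e-10). Whether LXR regulates *Smpdl3a* or the other listed genes in these mouse cells was not tested. *Fasn*, the fatty acid synthase gene, fell from 100.6 ± 3.13 to 46.4 ± 3.96 RPKM (log2 fold change -1.10, limma adjusted p = 1.31e-08), and the desaturase gene *Scd2* from 170.3 ± 3.03 to 99.0 ± 4.70 RPKM (log2 fold change -0.78, limma adjusted p = 1.22e-08). The related desaturase gene *Scd1* was not called, with means of 10.9 and 12.1 RPKM (log2 fold change 0.13, limma adjusted p = 0.0824). Without sh-*Etv5* replicate 1 the higher genes numbered 3. Below the filter stayed *Abcg5*, *Abcg8*, *Apoc1*, *Apoc2*, *Cd5l*, *Mertk* and *Arl4c*, the highest value being 0.586 RPKM for *Apoc2*.

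Changes of receptor partners and coregulators were small. Of 19 genes 16 were tested, and 13 were lower, 2 higher and 1 not called, where 41.0% of all genes tested were lower and 33.3% higher, with log2 fold changes between -0.61 and 0.21 and a median of -0.27. The largest changes were those of *Tbl1xr1*, a subunit of the NCoR corepressor complex (log2 fold change -0.61, limma adjusted p = 2.11e-06), of the histone acetyltransferase gene *Crebbp* (-0.42, limma adjusted p = 3.56e-04) and of the coactivator gene *Ncoa3* (-0.42, limma adjusted p = 2.94e-05). *Tbl1xr1* went from 6.32 ± 0.0709 to 3.78 ± 0.0966 RPKM (SD, n = 3). The higher genes numbered 1 without any single sh-NC library or without sh-*Etv5* replicate 2, and 3 without sh-*Etv5* replicate 3, while the lower genes numbered 10 to 12 over the libraries left out. *Rxrg*, *Ppara* and *Ppargc1a* were below the filter.

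PPAR targets split, with the lipid uptake and storage genes at the top. Of 13 genes 10 were tested, 5 of them higher, 4 lower and 1 not called (33.3% and 41.0% of all genes tested were higher and lower), with a median log2 fold change of 0.12. *Fabp4*, the fatty acid binding protein of macrophages and adipocytes, read 1.31, 1.19 and 1.31 RPKM in control and 223, 219 and 256 RPKM in knockdown libraries (log2 fold change 6.68, limma adjusted p = 1.69e-14). The next were the fatty acid transporter gene *Cd36* (log2 fold change 3.70) and the lipid droplet gene *Plin2* (1.38). *Cd36* read 0.380, 0.306 and 0.391 RPKM in control and 16.7, 16.3 and 16.9 RPKM in knockdown libraries. It met the filter only through the knockdown libraries, so its place among the higher genes is not independent of its rise. The size of that rise depends on the pseudocount, with a log2 fold change of 5.50 at 0.01. The 7 other genes tested, mostly of fatty acid oxidation, lay between -0.87 and 0.45. *Pdk4* and *Ehhadh* were listed at 0 in every library. The members of this list are also targets of other factors.

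Among genes that free, esterify and carry cholesterol inside the cell, more were called higher than lower. Of 18 genes 12 were tested, 9 of them higher, 2 lower and 1 not called, against 33.3% higher and 41.0% lower over all genes tested, with a median log2 fold change of 0.27. *Cyp27a1*, which makes an oxysterol that activates LXR, rose from 4.70 ± 0.273 to 10.2 ± 0.732 RPKM (SD, n = 3, log2 fold change 0.97, limma adjusted p = 1.54e-07), and *Gramd1b*, a carrier of cholesterol from the plasma membrane to the endoplasmic reticulum, rose from 8.58 ± 0.169 to 16.3 ± 1.10 RPKM (log2 fold change 0.85, limma adjusted p = 1.24e-07). The sterol carrier gene *Stard4* fell by 0.64 on the log2 scale (limma adjusted p = 4.79e-07). *Ch25h*, which encodes cholesterol 25-hydroxylase, was listed at 0 in the sh-NC libraries and reached 0.568 RPKM in sh-*Etv5* cells. The lower genes numbered 1 without sh-NC replicate 2, sh-NC replicate 3 or sh-*Etv5* replicate 1. *Gramd1c*, *Abcg4*, *Lcat*, *Apoa1* and *Cyp7b1* were also below the filter.

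Of the lipoprotein receptor genes whose products MYLIP acts on, *Lrp8* was at 9.10 ± 0.220 and 8.97 ± 0.801 RPKM (SD, n = 3, limma adjusted p = 0.775). MYLIP acts on the receptor proteins, which RNA does not measure. Of 12 genes for maturation, anchoring and inhibition of LPL, 5 were tested, 3 of them higher and 2 lower, so all were called where 74.3% of the tested genes were, with a median log2 fold change of 0.48. *Furin*, a protease that cleaves LPL, rose from 11.5 ± 0.268 to 40.8 ± 1.86 RPKM (SD, n = 3, log2 fold change 1.74, limma adjusted p = 7.88e-11). *Sel1l*, needed for LPL to leave the endoplasmic reticulum, rose from 20.7 ± 0.716 to 47.4 ± 1.58 RPKM (log2 fold change 1.16, limma adjusted p = 1.06e-09). The LPL inhibitor gene *Angptl4*, which is also a PPAR target, fell from 4.48 ± 0.159 to 2.26 ± 0.213 RPKM (log2 fold change -0.75, limma adjusted p = 2.71e-06). *Gpihbp1*, which anchors LPL on capillaries, and *Pcsk6* were listed at 0, and *Angptl8*, *Apoc2*, *Apoc3* and *Apoa5* were below the filter. *Angptl4* and *Apoc2* each stand in 2 of these lists.

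**Figure D4:**
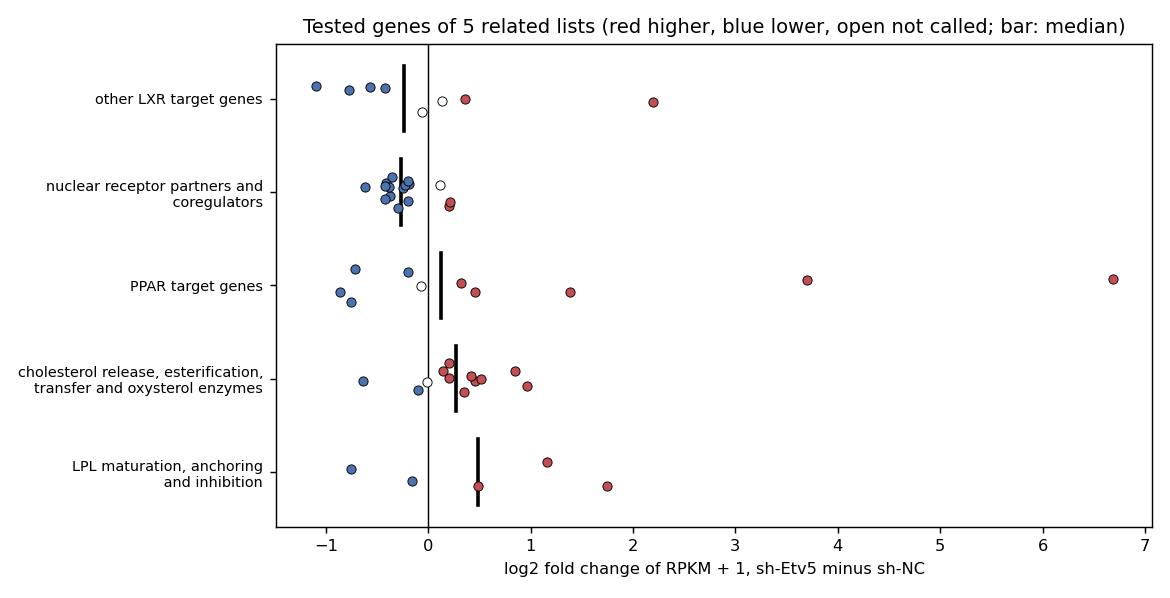
Log2 fold change of RPKM + 1 (horizontal axis, sh-*Etv5* minus sh-NC) of each tested gene in 5 related lists (rows), red for higher, blue for lower and open for not called, with the median of a list as a bar. The coregulators lie between -0.61 and 0.21, whereas PPAR targets run from -0.87 to 6.68.

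The tested genes nearest to *Ppard* in centred log2(RPKM + 1) over the 6 libraries were *Prag1* (Euclidean distance 0.109), *Napb* (0.141) and *Rhbdf1* (0.147), against a median distance of 1.64 over all tested genes. The nearest to *Lpl* were *Rasgrp3* (0.0372), *Rarb* (0.0882) and *Slc44a1* (0.113), against a median of 2.41. *Rasgrp3* went from 67.8 ± 0.550 to 16.1 ± 0.483 RPKM (SD, n = 3) and *Rarb* from 9.10 ± 0.435 to 1.47 ± 0.117 RPKM. With 6 libraries in 2 groups, this distance reflects mainly a difference between the groups of like size.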

How the data were processed

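RNA-sequencing of 3 sh-NC and 3 sh-*Etv5* libraries of Raw264.7 cells was used, with groups and replicate numbers from the labels. The authors deposited RPKM values, 1 per gene symbol and library, without log transformation, taken from coverage tracks on mm10 (build per the labels). Libraries were prepared with an Illumina TruSeq kit and limma was used by the study, while aligner, annotation and strandedness are not given in the sources used here. Scaling by length and mapped reads is part of the values, and abundant genes that change move the others: the 10 highest genes held 7.04% to 7.17% of the summed RPKM in sh-NC and 10.5% to 10.8% in sh-*Etv5* libraries. Depth is unknown. Among low genes (both values under 0.05 RPKM), 10.3% to 12.0% of the ratios to sh-NC replicate 1 fell within 0.05% of small whole-number multiples of the commonest ratio, so whole reads could not be recovered. If that ratio is the value of 1 read, the libraries held 0.897 to 1.06 times the mapped reads of sh-NC replicate 1. No interval for counting error was computed.

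Genes with at least 1 RPKM in at least 3 libraries were compared on log2(RPKM + 1) by limma (version 3.58.1, R 4.3.3, two-sided, eBayes with trend, no covariate, Benjamini-Hochberg over 10738 genes), a scale that understates the change of low genes. Genes below the filter were read from a fit of the 17831 symbols above 0. Shares within 4 pairs of genes were compared by exact permutation tests (SciPy 1.17.1). The limma step was tested on simulated data. Loci and shared 50-base sequences came from GENCODE release M21 on GRCm38, and promoters, found for 8 of the 10 genes, from RefSeq (GRCm38.p6). The genes and lists were chosen with earlier results of these data known. Named were the 10 genes, *Etv5*, the 3 tested genes of each list with the largest change, list genes below the filter, and the 3 nearest genes to the largest rise and fall. Some genes of these lists, and the counts of 1 list, are not reported here. *Gm13783*, *Lyz2*, *Cd79b* and *Scd1* were named after values were seen. Alternatives were a mean of at least 5 RPKM or no filter, pseudocounts of 0.1 and 0.01, rescaling to the same sum, median-ratio and quantile scaling, eBayes without trend, the replicate number as a block, and each library left out in turn.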

Additional observations from a re-analysis of the deposited data

How the results depend on the processing

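The 6 calls among the 7 tested genes held under every alternative in which the gene was tested. With a mean of at least 5 RPKM as filter, 2 of the genes were lower in place of 4, because *Apoe* and *Mylip* were then not tested. Adjusted p-values of the called genes stayed at or under 0.0232, the value of *Apoe* without the filter. The log2 fold change of *Nr1h3* ranged from 0.03 (quantile) to 0.22 and passed under none. *Abca1* was called with the replicate number as a block (log2 fold change 0.17, limma adjusted p = 0.0457) and without either of 2 sh-*Etv5* libraries, and its log2 fold change ran from 0.107 to 0.220 over the 6 fits that each omit a library. The cause was not tested. The replicate block left 2 of the 7 genes higher and 4 lower, and 3539 genes higher and 4361 lower in all, against 3575 and 4399 without it. It changed no call of the 10 genes other than that of *Abca1*. Deviations of same-numbered libraries from their group means correlated at 0.074, -0.071 and -0.035. For differently numbered libraries the correlations ran from -0.071 to 0.105. A pairing by number was thus not seen, but values from 3 libraries per group cannot exclude it. Pseudocounts moved the low genes most, and *Rxra* ranged from 0.41 to 2.92 on the log2 scale and passed under all. *Lrp8*, not called, turned to 0.0061 with median-ratio scaling and ran from -0.0701 to 0.0442 over the libraries left out. Counts for the related lists differed in some settings, though not all of these differences were over 1.5 times. The higher coregulators numbered 1 in place of 2 with no filter, a mean of at least 5 RPKM, the same sum or quantile scaling, and the lower ones 10 in place of 13 with no filter. The higher genes of the LXR target list numbered 1 in place of 2 with a mean of at least 5 RPKM and 3 with median-ratio scaling. The lower PPAR targets numbered 2 in place of 4 with a mean of at least 5 RPKM. The lower cholesterol genes numbered 1 in place of 2 with median-ratio scaling or eBayes without trend. For LPL, 5 in place of 3 genes were higher with no filter, and 1 in place of 2 was lower with a mean of at least 5 RPKM. Rescaling moved the median of all genes from -0.05 to between -0.10 and -0.02. The values have no known depth, so levels under 1 RPKM (*Rxra*, *Abca1*, *Pparg* and, in sh-NC cells, *Cd36*) are the least certain.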
